A study of Homo sapiens with 18 samples.

Results

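The kynurenine pathway genes TDO2, IDO1, AFMID, KMO, KYNU, HAAO and QPRT were examined on exon arrays of 3 human myeloid leukaemia cell lines. A gene belonged to the group when at least 1 probe set of the array carried its symbol and no other, and its level was the mean of those probe sets on the log2 scale. Of the 7 listed genes, 6 were measured among 16241 genes in all. AFMID, the formamidase that releases kynurenine, was not analysed here. The genes were chosen by their PMA minus DMSO levels in these same arrays, so that response is described below with no test.

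The lines were HL60, a promyelocytic leukaemia line, THP-1, a monocytic leukaemia line, and U937, a histiocytic lymphoma line of monocytic character. Cultures received either PMA (phorbol 12-myristate 13-acetate) at 30 nM, a phorbol ester that activates protein kinase C and drives such cells towards macrophages, or the solvent alone (DMSO, dimethyl sulfoxide), and were taken after 3 days. The 6 groups held 3 arrays each, 18 in all, made from total RNA of whole cultures. Whether the numbered arrays of a group stem from separate cultures is not stated in the labels, and a p-value here therefore measures only the spread between these samples.

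Most tryptophan that is not built into protein is broken down through kynurenine. TDO2 and IDO1 open the indole ring of tryptophan, AFMID frees kynurenine, KMO adds a hydroxyl group to it, KYNU cleaves the side chain, HAAO opens the remaining ring, and QPRT turns the resulting quinolinate into a precursor of NAD. TDO2 is best known from hepatocytes, while IDO1, KMO and KYNU are known from monocytes, macrophages and dendritic cells, where interferon gamma induces IDO1. Kynurenine activates the aryl hydrocarbon receptor, and side branches lead to kynurenate and anthranilate.

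Array medians ran from 6.18 to 6.95, and Pearson correlations within a group from 0.931 to 0.978 over all probe sets. Both U937 arrays numbered 2 stood apart. They shared at most 5 exactly tied values with any array, against 39 to 116 among the other arrays of a line, and the U937 PMA array numbered 2 held 83228 distinct values against 214471 or more elsewhere. For the members, the U937 change is therefore also given without this pair. Of the 9 myeloid markers measured, 8 or 9 lay above 5.17, the 30th percentile of all probe-set means, in every group. So did all 3 B cell markers, 4 or 5 of 9 epithelial and fibroblast markers and 2 to 4 of 8 T and NK cell markers. Of 5 erythroid and megakaryocyte markers, 2 to 4 did. Passing this level therefore does not set myeloid cells apart. Of the 9 myeloid markers, 3 rose and 4 fell in HL60, 2 rose and 3 fell in THP-1, and 3 rose in U937 (limma). The macrophage markers CSF1R and ITGAM rose in all 3 lines, by 3.04, 3.07 and 2.71 and by 3.57, 2.98 and 2.87 log2 units (HL60, THP-1, U937; adjusted p at most 2.4e-05, limma). LYZ, MPO and CSF3R, which encode lysozyme, myeloperoxidase and the G-CSF receptor, fell in HL60 and THP-1, with changes of -1.71, -5.88 and -1.58 and of -2.13, -0.81 and -1.90 (adjusted p at most 0.0054, limma). PTPRC rose by 1.14 in HL60, and FCGR1A, an Fc receptor, changed by -2.40 in HL60 and 1.21 in U937 (adjusted p 0.025, 3.1e-06 and 0.0035, limma). Because RNA came from whole cultures, fewer cells expressing a gene and less RNA per cell cannot be told apart.

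With PMA, TDO2 was higher in all 3 lines, most of all in U937, where the mean level was 77.0-fold above DMSO. KYNU was higher in HL60 and U937 and lower on average in THP-1, and KMO had the same directions. HAAO was higher in HL60, and QPRT was lower in HL60. IDO1 stayed at a low level in every group. All 3 PMA arrays lay above all 3 DMSO arrays for 4 of the 6 genes in HL60, 2 in THP-1 and 2 in U937, beside 29.7%, 23.2% and 5.86% of all genes. All 3 lay below for 1, 1 and 0 genes, beside 16.4%, 19.8% and 19.5% of all genes. The median change over the 6 genes was 1.31, -0.38 and 0.50 log2 units in HL60, THP-1 and U937, beside 0.13, 0.04 and -0.07 over all genes. These values come from the contrast that chose the genes, and nothing is read from them.

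**Figure D1:**
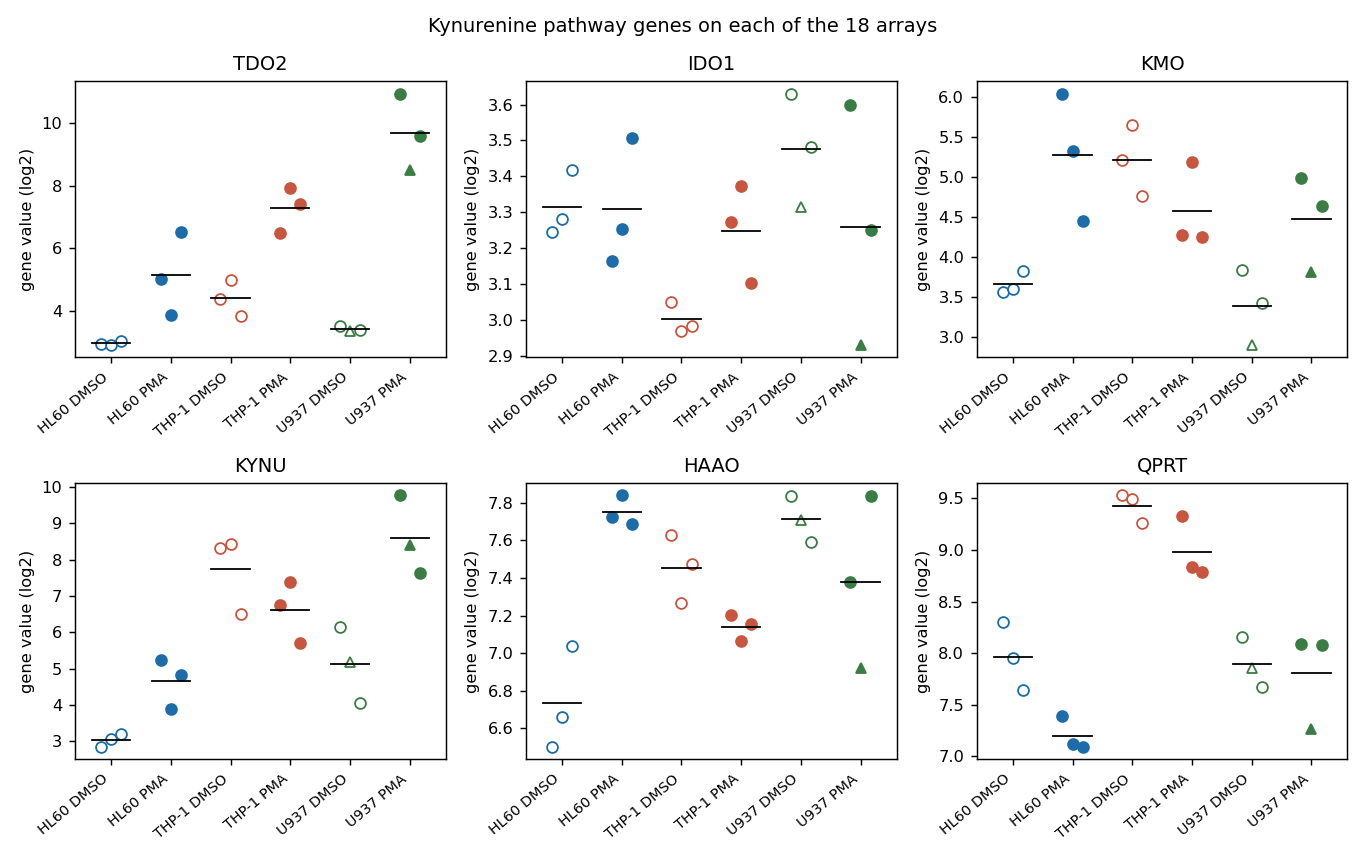
Gene level (log2, mean of the gene's probe sets) on each of the 18 arrays, 1 panel per gene with its own scale. Open symbols are DMSO arrays, filled symbols PMA arrays, triangles the U937 arrays numbered 2, and black lines group means; TDO2 on PMA lies above DMSO in each line, while IDO1 spans 2.93 to 3.63 over all arrays.

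**Figure D2:**
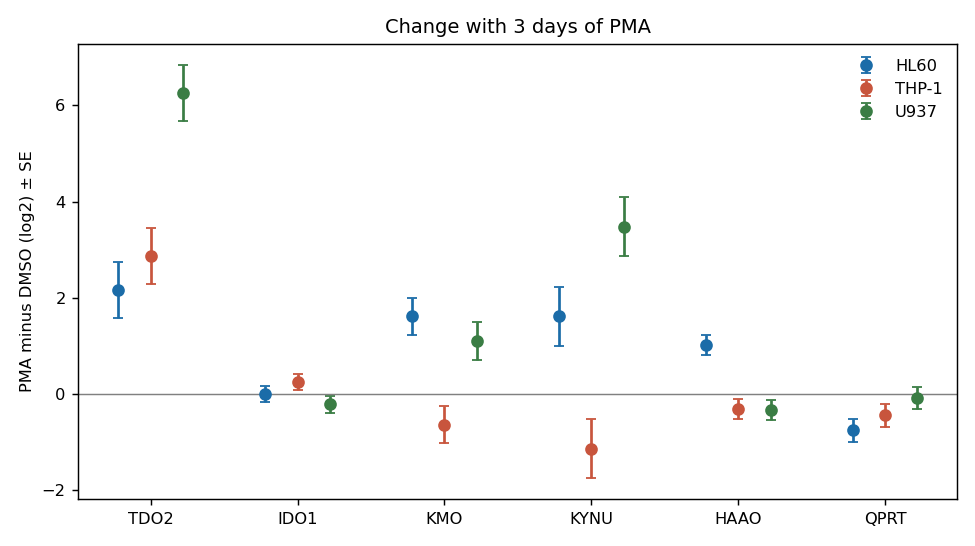
PMA minus DMSO (log2) for each gene in each line, with the standard error from the fit over all genes (3 arrays per group). TDO2 in U937 has the highest change shown, 6.27, and KYNU and KMO lie below 0 in THP-1 only.

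TDO2, tryptophan dioxygenase, catalyses the first step. In HL60 its log2 level was 2.94, 2.91 and 3.05 on the DMSO arrays and 5.00, 3.85 and 6.52 on the PMA arrays. Every PMA array lay above every DMSO array, and the PMA arrays were far more spread than the DMSO arrays. In THP-1 the level was 4.39, 4.97 and 3.84 with DMSO and 6.48, 7.93 and 7.41 with PMA. In U937 it was 3.52, 3.35 and 3.37 with DMSO and 10.94, 8.51 and 9.59 with PMA. The groups did not overlap in either of these lines, and the lowest U937 PMA array was above every array of the other lines. The change was 2.16 ± 0.58 (SE) in HL60, 2.87 ± 0.58 in THP-1 and 6.27 ± 0.58 in U937, or 4.47-fold, 7.32-fold and 77.0-fold. The response in U937 exceeded that in HL60 by 4.11 ± 0.82 and that in THP-1 by 3.39 ± 0.82, given with no test. Without the U937 arrays numbered 2 the U937 change was 6.82.

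The TDO2 signal was shared by its probe sets. In U937 all 15 probe sets were higher with PMA, by 4.02 to 8.14 log2 units. In THP-1 all 15 were higher as well, by 1.16 to 3.81. In HL60 14 of 15 were higher, within a range from -0.71 to 3.83. All 3 DMSO groups and the HL60 PMA group had mean TDO2 levels below 5.17, among the lowest 30% of probe-set means. In HL60 both ends of the change thus lay in this low range. The part of such low signal in the folds was not tested. Ordered by group mean, TDO2 rose from HL60 DMSO (2.97 ± 0.07, SD, n = 3) through U937 DMSO (3.41 ± 0.09), THP-1 DMSO (4.40 ± 0.57), HL60 PMA (5.13 ± 1.34) and THP-1 PMA (7.27 ± 0.74) to U937 PMA (9.68 ± 1.22). Neighbours overlapped only between THP-1 DMSO and HL60 PMA and between HL60 PMA and THP-1 PMA.

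Since TDO2 is known from liver, hepatocyte markers were read on the same arrays. ALB stayed between 3.19 and 3.57 and FGB between 3.27 and 3.86 in the 6 group means. ALB, FGB, TTR and APOA2 did not pass the test in any line. SERPINA1, the protease inhibitor alpha-1-antitrypsin, which monocytes also make, rose by 0.96 ± 0.21, 1.42 ± 0.21 and 1.04 ± 0.21 in HL60, THP-1 and U937 (adjusted p at most 0.0021, limma). APOA1, an apolipoprotein, rose in HL60 by 0.87 ± 0.23 (adjusted p = 0.0085, limma). In each group 2 of the 6 hepatocyte markers lay above 5.17, and their median was between 4.45 and 4.78.

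The promoters of TDO2 and KYNU, the members with the highest PMA changes, are shown as the 250 bases before the RefSeq start in build GRCh38.p14, both on the forward strand. The TDO2 window is chr4:155903446-155903695 and the KYNU window chr2:142877414-142877663. Capitals mark matches to the motifs named after them.
TDO2: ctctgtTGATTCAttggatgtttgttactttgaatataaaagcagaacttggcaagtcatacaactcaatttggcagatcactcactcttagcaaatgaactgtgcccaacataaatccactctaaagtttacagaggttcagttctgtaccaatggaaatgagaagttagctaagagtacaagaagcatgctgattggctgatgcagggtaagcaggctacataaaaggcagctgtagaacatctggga
KYNU: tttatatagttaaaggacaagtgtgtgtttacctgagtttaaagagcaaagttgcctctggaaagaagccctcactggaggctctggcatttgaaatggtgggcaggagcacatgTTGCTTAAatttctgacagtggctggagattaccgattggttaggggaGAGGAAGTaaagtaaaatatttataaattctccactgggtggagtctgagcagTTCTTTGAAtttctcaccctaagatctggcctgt
The TDO2 window held 1 match to TGANTCA, a loose form of the AP-1 motif, searched with any base allowed at N. The matched stretch, TGATTCA, had T at that place and ended 238 bases before the start. The KYNU window held 1 match each to the PU.1 motif GAGGAAGT, the C/EBP motif TTGCNNAA and the interferon gamma activated site TTCNNNGAA, whose last bases lay 80, 128 and 26 bases before the start. The interferon-stimulated response element (ISRE) and the dioxin response core GCGTG were also searched, all on both strands and with no overlap between the matches shown. Of 35116 RefSeq windows of this length, 6.57% held the loose AP-1 form, 2.17% PU.1, 9.05% C/EBP, 6.57% the activated site, 3.02% the ISRE and 32.2% the dioxin response core. The windows of KMO, HAAO and QPRT held none of the 6 motifs, and that of AFMID 1 dioxin response core. For IDO1 no window was available, so its promoter was not searched. A match describes letters in the window only.

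IDO1, indoleamine dioxygenase, catalyses the same step as TDO2. Its level was 3.24, 3.28 and 3.42 on HL60 DMSO arrays and 3.16, 3.25 and 3.51 on HL60 PMA arrays. In THP-1 it was 3.05, 2.97 and 2.98 with DMSO and 3.27, 3.37 and 3.10 with PMA. In U937 it was 3.63, 3.32 and 3.48 with DMSO and 3.60, 2.93 and 3.25 with PMA. The groups overlapped in HL60 and U937, and in THP-1 the PMA arrays lay above the DMSO arrays by a narrow margin. The changes were -0.0047 ± 0.17, 0.25 ± 0.17 and -0.22 ± 0.17, and the U937 value was 0.02 once each array was centred on its median and -0.13 without the arrays numbered 2. Of its 16 probe sets, 2 had a mean above 5.17, and none changed by 1 log2 unit or more in any line. No array lay above 3.63.

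KMO hydroxylates kynurenine and commits it to the branch towards quinolinate. In HL60 its level was 3.56, 3.60 and 3.82 with DMSO and 6.05, 5.32 and 4.45 with PMA, with no overlap. In THP-1 it was 5.22, 5.65 and 4.76 with DMSO and 4.27, 5.19 and 4.25 with PMA. In U937 it was 3.84, 2.90 and 3.42 with DMSO and 4.99, 3.82 and 4.64 with PMA. The groups overlapped in both of these lines, although every PMA array lay below its same-numbered DMSO array in THP-1 and above it in U937. The changes were 1.61 ± 0.39, -0.64 ± 0.39 and 1.10 ± 0.39 in HL60, THP-1 and U937, and the U937 change was 1.19 without the arrays numbered 2. By array number, the THP-1 differences were -0.95, -0.47 and -0.51 and the U937 differences 1.15, 0.92 and 1.22. All 22 probe sets were higher in HL60 and in U937, while 19 of 22 were lower in THP-1. Only 5 of them had a mean above 5.17, and the part of such low signal in the changes was not tested.

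KYNU, kynureninase, cleaves kynurenine to anthranilate and hydroxykynurenine to hydroxyanthranilate. In HL60 its level was 2.86, 3.07 and 3.20 with DMSO and 5.25, 3.89 and 4.82 with PMA. In U937 it was 6.14, 5.18 and 4.06 with DMSO and 9.77, 8.41 and 7.64 with PMA. The groups did not overlap in either line. In THP-1 it was 8.32, 8.44 and 6.50 with DMSO and 6.74, 7.38 and 5.71 with PMA. Here the groups overlapped, because THP-1 DMSO 3 lay below THP-1 PMA 1 and THP-1 PMA 2. Both arrays numbered 3 were the lowest of their group. The changes were 1.61 ± 0.62 in HL60 (3.05-fold), -1.14 ± 0.62 in THP-1 and 3.48 ± 0.62 in U937 (11.2-fold). The HL60 DMSO mean of 3.04 lay below 5.17, as did the HL60 PMA mean of 4.65, and the part of such low signal in the HL60 values was not tested.

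In U937 and THP-1 the KYNU differences between same-numbered arrays were less spread than the levels within a group. The U937 differences by number were 3.63, 3.23 and 3.58 (SD 0.22), and the THP-1 differences were -1.58, -1.05 and -0.79 (SD 0.40). In HL60 the differences were 2.39, 0.82 and 1.62, more spread (SD 0.78) than the levels with DMSO (SD 0.17) or PMA (SD 0.69). Of its 17 probe sets, all were higher in U937 by 1.77 to 4.23, all were lower in THP-1 by 0.44 to 2.91, and 16 were higher in HL60. The response in U937 stood 4.62 ± 0.87 above that in THP-1, and that in THP-1 lay 2.75 ± 0.87 below that in HL60, given with no test. Without the U937 arrays numbered 2 the U937 change was 3.61.

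**Figure D3:**
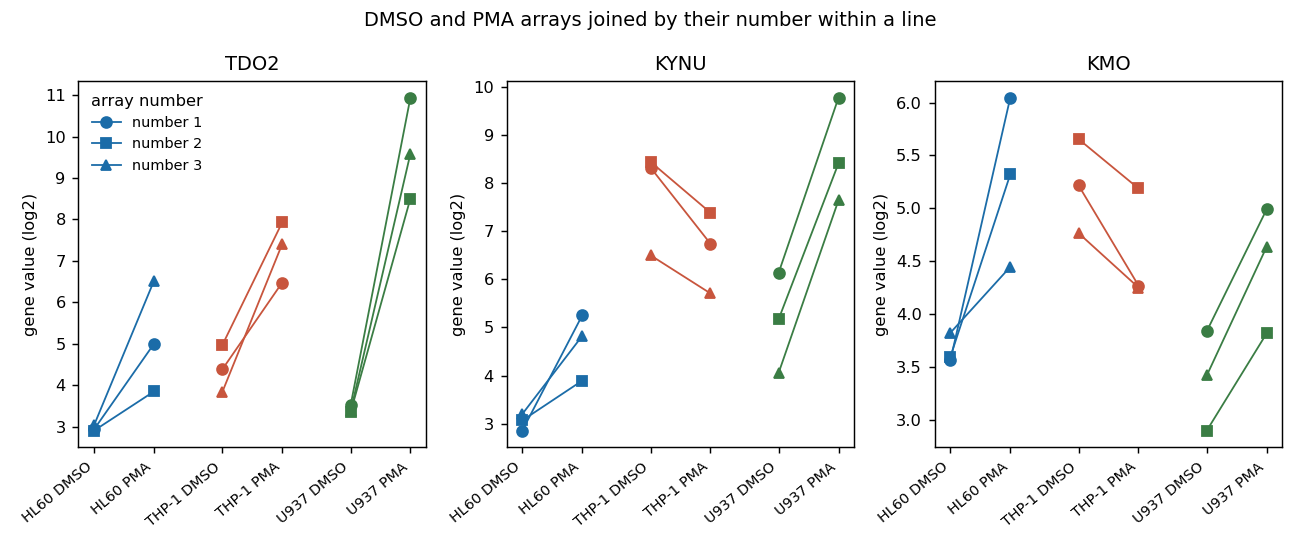
Gene level (log2) of TDO2, KYNU and KMO with DMSO and with PMA, lines joining the arrays that carry the same number within a cell line (circle 1, square 2, triangle 3). The U937 lines for KYNU run almost parallel, at 3.63, 3.23 and 3.58, and those of THP-1 for KYNU and KMO all point down.

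HAAO, the dioxygenase that turns hydroxyanthranilate into the precursor of quinolinate, was 6.50, 6.66 and 7.04 with DMSO and 7.72, 7.84 and 7.69 with PMA in HL60. In THP-1 it was 7.63, 7.27 and 7.47 with DMSO and 7.20, 7.06 and 7.15 with PMA. In U937 it was 7.84, 7.71 and 7.59 with DMSO and 7.38, 6.92 and 7.84 with PMA. HL60 PMA arrays lay above, and THP-1 PMA arrays below, all DMSO arrays of their line, while the U937 groups overlapped. The changes were 1.02 ± 0.20, -0.32 ± 0.20 and -0.33 ± 0.20. The U937 value was -0.09 with arrays centred on their median and -0.11 without the arrays numbered 2. In HL60 14 of 15 probe sets were higher, and in THP-1 10 of 15 were lower.

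QPRT, quinolinate phosphoribosyltransferase, links the pathway to NAD. Its level in HL60 was 8.30, 7.95 and 7.64 with DMSO and 7.39, 7.12 and 7.09 with PMA. In THP-1 it was 9.53, 9.49 and 9.26 with DMSO and 9.33, 8.84 and 8.79 with PMA. In U937 it was 8.16, 7.85 and 7.67 with DMSO and 8.09, 7.26 and 8.07 with PMA. HL60 PMA arrays lay below the HL60 DMSO arrays, and the groups overlapped in the other lines. The changes were -0.76 ± 0.24, -0.44 ± 0.24 and -0.09 ± 0.24. The U937 value turned to 0.16 without the arrays numbered 2 and to 0.15 with arrays centred on their median.

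**Figure D4:**
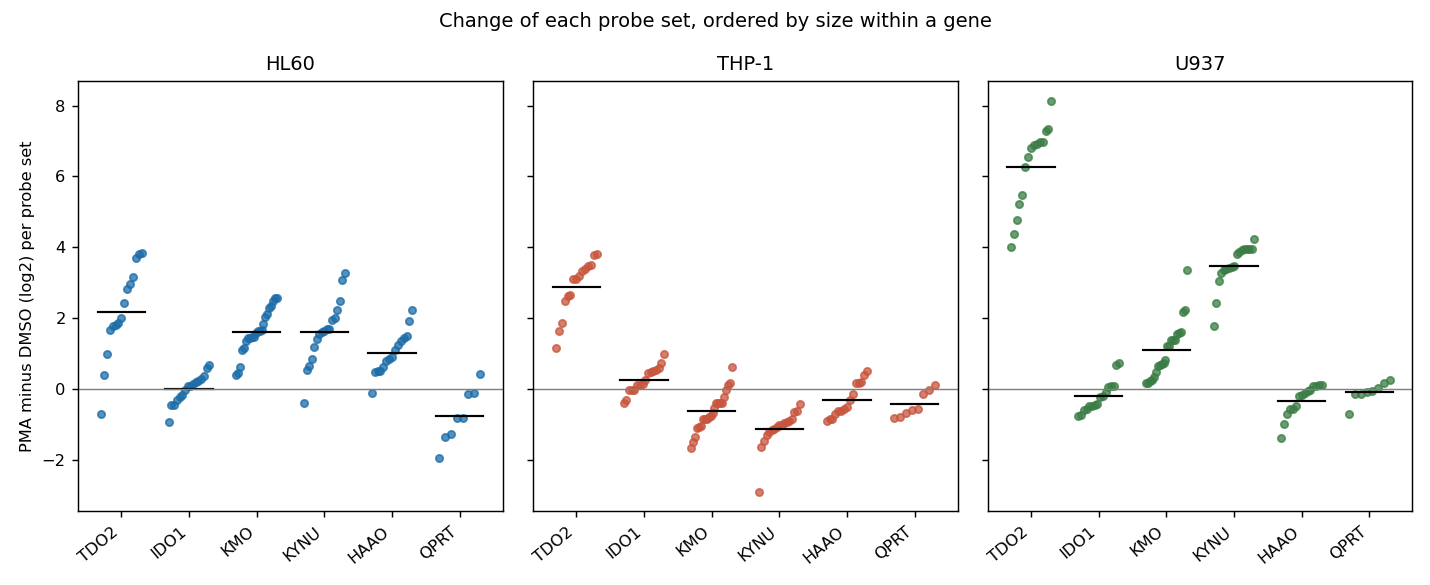
PMA minus DMSO (log2) of every probe set, ordered by size within a gene, in HL60, THP-1 and U937; black lines mark the gene means. The 15 TDO2 probe sets of U937 and the 17 KYNU probe sets of THP-1 and of U937 each lie on 1 side of 0.

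The lines differed before treatment. The choice of genes did not compare the lines, but these DMSO arrays entered the PMA minus DMSO levels that made it. The tests between lines with DMSO are therefore not independent of that choice. With DMSO, KYNU was 7.75 ± 1.09 in THP-1, 3.04 ± 0.17 in HL60 and 5.12 ± 1.04 in U937 (SD, n = 3). It was higher in THP-1 than in HL60 by 4.71 ± 0.62 (SE) log2 units and than in U937 by 2.63 ± 0.62. The adjusted p-values from limma were 2.2e-05 and 0.0039. The HL60 and U937 DMSO means of KYNU lay below 5.17, and the part of such low signal in these differences was not tested. KMO was higher in THP-1 than in HL60 by 1.55 ± 0.39 (adjusted p = 0.0087, limma) and than in U937 by 1.83 ± 0.39 (adjusted p = 0.0018, limma). The KMO DMSO means of HL60 and U937, 3.66 and 3.38, lay below 5.17, and that of THP-1 was 5.21. How far such low signal shaped the KMO differences was not tested. QPRT was higher in THP-1 than in HL60 by 1.46 ± 0.24 (adjusted p = 0.00021, limma) and than in U937 by 1.53 ± 0.24 (adjusted p = 9.5e-05, limma). THP-1 DMSO arrays thus had the highest mean of the DMSO groups for these 3 genes.

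HAAO was lower in HL60 than in U937 by 0.98 ± 0.20 (adjusted p = 0.0018, limma) and than in THP-1 by 0.72 ± 0.20 (adjusted p = 0.020, limma). KYNU was also higher in U937 than in HL60, by 2.08 ± 0.62 (adjusted p = 0.020, limma). TDO2 was not called between any lines, with adjusted p-values of 0.11 to 0.66 in limma. IDO1 was not called either. Its U937 minus THP-1 difference of 0.47 ± 0.17 had an adjusted p of 0.053, or 0.049 with the replicate number as a block (limma). Both IDO1 means, 3.48 and 3.00, lay below 5.17. Over all genes the median difference with DMSO was 0.31 for U937 minus THP-1, 0.23 for U937 minus HL60 and -0.05 for THP-1 minus HL60. The part of this shift in the differences of the members was not tested. In all, 4 of the 6 genes were called for THP-1 against HL60, 2 for U937 against HL60 and 3 for U937 against THP-1, beside 16.6%, 22.9% and 26.2% of all genes.

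Some of these calls rested on single arrays. The KYNU difference between U937 and HL60 lost its call without the U937 DMSO array 1 (1.57, adjusted p = 0.13, limma) and without U937 DMSO 2, HL60 DMSO 1 or HL60 DMSO 2 (adjusted p 0.057, 0.054 and 0.053, limma). The HAAO difference between THP-1 and HL60 lost it without HL60 DMSO 1 or 2 or THP-1 DMSO 1 or 3 (adjusted p 0.10, 0.077, 0.099 and 0.051, limma). The KMO difference between THP-1 and HL60 lost it without THP-1 DMSO 2 (1.33, adjusted p = 0.053, limma). The IDO1 difference gained a call without any 1 of the 3 U937 PMA arrays (adjusted p 0.031, 0.012 and 0.049, limma).

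The genes whose levels most resembled a member's were sought among 2861 genes whose group means spanned at least 2 log2 units, for members with that span. Over the 18 arrays, which share 3 lines and 6 groups, TDO2 was closest to C5AR1, the complement C5a receptor (Pearson r = 0.90), to AHNAK2 (0.90) and to TMBIM1 (0.90). KYNU was closest to the protease subunit CAPN2 (0.88), to IL3RA, a chain of the interleukin receptor (0.87), and to ANXA4, an annexin (0.86). QPRT was closest to ZNF691 (0.95), DNAJA4 (0.94) and PCDHB3 (0.94). These are descriptions of the same arrays.

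Around these enzymes, 73 other genes of tryptophan and kynurenine biology were listed in 7 groups, and 68 were measured. GOT2, SLC3A2 and AHRR were among those not analysed here. In HL60 17 rose and 7 fell, in THP-1 9 rose and 7 fell, and in U937 10 rose and 11 fell (adjusted p under 0.05, limma). Over all genes, 12.3% rose and 10.7% fell in HL60, 9.38% and 13.2% in THP-1, and 5.50% and 16.5% in U937. Median changes over the 68 genes were 0.24, 0.11 and 0.04. With the replicate number as a block, 21 rose and 9 fell in HL60, 14 and 10 in THP-1, and 15 and 15 in U937. In U937 19 rose after quantile normalization, which moved the median over all genes from -0.07 to 0.12, and the share of U937 calls that were higher from 25.0% to 48.3%. Without both U937 arrays numbered 2, the U937 calls for SLC7A5, SLC7A11, WARS2, IRF8, SOCS1, SOCS3 and ASNS were lost (adjusted p 0.14, 0.16, 0.067, 0.23, 0.096, 0.087 and 0.070, limma).

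The transporters SLC7A8 and SLC7A7 rose in all 3 lines, and SLC36A4 fell in THP-1 and U937. Of 9 transporters of tryptophan and kynurenine measured, 3 rose and 2 fell in HL60, 2 rose and 3 fell in THP-1, and 3 rose and 5 fell in U937, with median changes of 0.34, -0.25 and -0.74. SLC7A8, an exchanger of large neutral amino acids, rose by 2.93 ± 0.24, 4.13 ± 0.24 and 2.21 ± 0.24 in HL60, THP-1 and U937 (adjusted p 6.2e-08, 3.1e-09 and 4.7e-06, limma). SLC7A7, an exchanger of cationic and neutral amino acids, rose by 2.00 ± 0.30, 2.75 ± 0.30 and 3.04 ± 0.30 (adjusted p 5.5e-05, 2.6e-06 and 1.2e-06, limma). SLC36A4, a tryptophan and proline transporter, fell by 1.05 ± 0.24 in THP-1 and by 1.52 ± 0.24 in U937 (adjusted p 0.0041 and 0.00019, limma). SLC7A6, related to SLC7A7, fell by 1.05 ± 0.23 in HL60 (adjusted p = 0.0023, limma). SLC16A10 completed the increases in HL60, SLC1A5 the decreases in THP-1, and SLC16A10, SLC1A5 and SLC7A6 those in U937. The SLC7A6 call in U937 was lost without U937 DMSO 1 (adjusted p = 0.055, limma).

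SLC7A5, the main importer of tryptophan in exchange for other amino acids, changed by -0.89 ± 0.25, -0.25 ± 0.25 and -0.74 ± 0.25. It was called lower in HL60 (adjusted p = 0.014, limma) and U937 (adjusted p = 0.045, limma). The HL60 call was lost in 3 of 25 alternatives and the U937 call in 16 of 25, with adjusted p up to 0.087 and 0.17 (limma). The cystine transporter SLC7A11 was called lower in THP-1, by 2.13 ± 0.57, and higher in U937, by 1.74 ± 0.57 (adjusted p 0.011 and 0.035, limma). Without single arrays these adjusted p-values reached 0.060 (THP-1 PMA 1) and 0.14 (U937 PMA 1).

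Among other fates of tryptophan, 2, 1 and 1 of 12 genes rose in HL60, THP-1 and U937, and 1 fell in U937, with median changes of 0.24, 0.11 and 0.04. IL4I1, a secreted oxidase of aromatic amino acids, rose by 1.11 ± 0.23, 2.01 ± 0.23 and 2.38 ± 0.23 (adjusted p 0.0014, 5.0e-06 and 1.1e-06, limma). WARS1, the cytosolic tryptophan tRNA ligase, rose in HL60 by 1.65 ± 0.28 (adjusted p = 0.00023, limma) and changed by -0.37 ± 0.28 in THP-1 and 0.46 ± 0.28 in U937. In U937 WARS1 passed the test after quantile normalization (0.70, adjusted p = 0.0085, limma), with arrays centred on their median (0.70, adjusted p = 0.013, limma), without PMA array 2 (0.87, adjusted p = 0.0077, limma) and without both arrays numbered 2 (0.85, adjusted p = 0.025, limma). WARS2, its mitochondrial counterpart, fell in U937 by 1.27 ± 0.30 (adjusted p = 0.0049, limma), or by 0.98 without both arrays numbered 2 (adjusted p = 0.067, limma). IDO2, the relative of IDO1, did not pass the test in any line and had group means of 3.58 to 3.94.

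Of 7 genes of the aryl hydrocarbon receptor and the kynurenate receptor, 5 rose in HL60, 2 in THP-1 and 1 in U937, with median changes of 1.08, 0.32 and 0.20. AHR, which binds kynurenine, rose by 1.48 ± 0.25 in HL60 and by 0.92 ± 0.25 in THP-1 (adjusted p 0.00018 and 0.011, limma). The THP-1 call was lost without THP-1 PMA 2 (0.74, adjusted p = 0.064, limma). In U937 the AHR change was 0.22 ± 0.25 and was not called, but it passed after quantile normalization (0.47, adjusted p = 0.036, limma) and with arrays centred on their median (0.46, adjusted p = 0.039, limma). CYP1B1, a classical target, rose in HL60 by 1.56 ± 0.27 (adjusted p = 0.00033, limma). TIPARP, NQO1 and GPR35, the kynurenate receptor, completed the HL60 list at 1.08 ± 0.28, 1.51 ± 0.49 and 1.02 ± 0.22. The TIPARP call was lost without HL60 DMSO 3 (adjusted p = 0.050, limma) and the NQO1 call without HL60 DMSO 2 or 3 or HL60 PMA 1 (adjusted p 0.12, 0.13 and 0.16, limma). NQO1 in THP-1 and GPR35 in U937 were called as well, with adjusted p up to 0.17 and 0.15 in the alternatives.

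Of 12 genes of the interferon gamma route to IDO1, 5, 4 and 4 rose and 1, 2 and 1 fell in HL60, THP-1 and U937, with median changes of 0.68, 0.34 and 0.37. IRF8, a myeloid transcription factor, fell by 2.84 ± 0.43 in HL60 and by 2.54 ± 0.43 in THP-1 (adjusted p 6.5e-05 and 0.00026, limma). In U937 it fell by 1.32 ± 0.43 (adjusted p = 0.034, limma), a call lost in 8 of 25 alternatives. Among these were quantile normalization (adjusted p = 0.086, limma) and the fit without U937 PMA 2, where it fell by 0.96 (adjusted p = 0.15, limma). The receptor chain IFNGR1 rose in THP-1 by 2.45 ± 0.50 and IFNGR2 in U937 by 1.50 ± 0.26 (adjusted p 0.0015 and 0.00037, limma). GBP1, an interferon-induced GTPase, and the adaptor BIN1 rose in THP-1 by 1.78 ± 0.27 and 1.34 ± 0.20 (adjusted p 9.5e-05 and 7.4e-05, limma). The chemokine CXCL10 rose in U937 by 1.60 ± 0.20 (adjusted p = 2.1e-05, limma), from a DMSO level of 3.25. This level and the U937 PMA level both lay below 5.17, and the part of such low signal in the CXCL10 change was not tested. The kinase JAK2 and its inhibitor SOCS1 rose in HL60 by 0.92 ± 0.25 and 0.89 ± 0.19 (adjusted p 0.011 and 0.0021, limma). BIN1, GBP1 and IFNGR2 in HL60, IFNGR2 in THP-1 and SOCS1 and SOCS3 in U937 completed the increases, and JAK2 in THP-1 the decreases. Of these, GBP1 and IFNGR2 in HL60, JAK2 in THP-1 and SOCS1 and SOCS3 in U937 lost the call in 5, 3, 3, 19 and 16 of 25 alternatives. IRF1 was not called in any line, with changes of 0.52, 0.40 and 0.03 (SE 0.21), but passed in HL60 and THP-1 after quantile normalization (adjusted p 0.028 and 0.021, limma) and with arrays centred on their median (adjusted p 0.043 and 0.034, limma). In HL60 it also passed without both U937 arrays numbered 2, U937 PMA 2 or U937 PMA 3 (adjusted p 0.039, 0.035 and 0.027, limma). IFNG itself did not pass the test and had group means of 2.69 to 3.21.

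Of 13 genes of the side branches and of NAD synthesis, 1 fell in HL60, 1 fell in U937 and the other 12 or 13 in each line were not called, with median changes of 0.03, 0.16 and -0.09. NMNAT3, a mitochondrial enzyme of NAD synthesis, fell in HL60 by 0.74 ± 0.19 (adjusted p = 0.0068, limma). KYAT1, a kynurenine aminotransferase, fell in U937 by 0.63 ± 0.18 (adjusted p = 0.018, limma), a call lost without U937 DMSO 1 (adjusted p = 0.098, limma) and when only the U937 arrays were fitted (adjusted p = 0.21, limma). NAMPT, the main salvage enzyme, changed by -0.23 ± 0.41, 0.17 ± 0.41 and 0.72 ± 0.41. The last value was called only with the replicate number as a block (adjusted p = 0.021, limma).

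Among 8 enzymes that consume NAD, 1 rose and 2 fell in HL60, 2 fell in THP-1, and 1 rose and 2 fell in U937, with median changes of -0.11, -0.19 and -0.26. BST1 and CD38, surface enzymes that cleave NAD, fell in THP-1, with changes of -1.29 ± 0.31 and -2.51 ± 0.40 (adjusted p 0.0053 and 0.00017, limma). BST1 also fell in HL60 by 2.11 ± 0.31 (adjusted p = 5.1e-05, limma). PARP1, the DNA damage sensor, fell in HL60 and U937, with changes of -1.09 ± 0.25 and -1.92 ± 0.25 (adjusted p 0.0038 and 3.0e-05, limma). PARP9 rose by 1.60 ± 0.32 and 1.61 ± 0.32 in the same lines (adjusted p 0.00096 and 0.0011, limma). The CD38 decrease in U937, 1.29 ± 0.40, had an adjusted p of 0.028 (limma), which reached 0.17 without U937 DMSO 3. In amino acid sensing, 1 of 7 genes rose and 1 fell in HL60 and 1 fell in U937, with median changes of -0.26, -0.21 and -0.09 in HL60, THP-1 and U937. ASNS, asparagine synthetase, fell by 1.56 ± 0.36 in HL60 and by 1.32 ± 0.36 in U937, the latter lost without U937 DMSO 1 or U937 PMA 2 (adjusted p 0.071 and 0.053, limma). DDIT3, a stress transcription factor, rose in HL60 by 1.30 ± 0.37, a call lost without HL60 DMSO 3 or HL60 PMA 1 (adjusted p 0.070 and 0.079, limma).

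**Figure D5:**
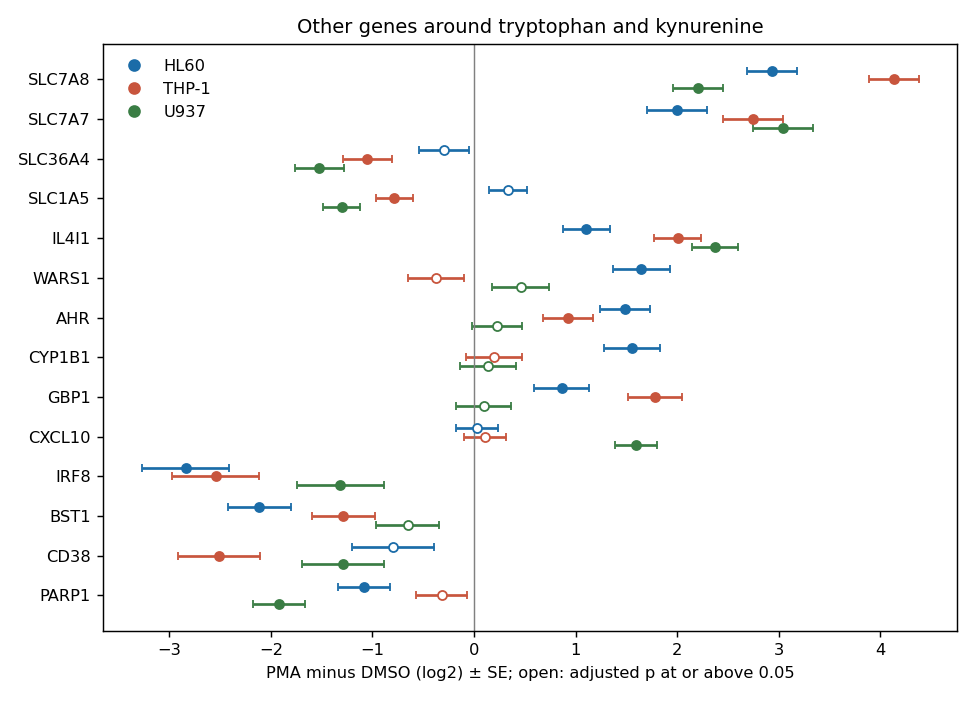
PMA minus DMSO (log2) ± SE of 14 other genes of tryptophan and kynurenine biology in the 3 lines; filled points passed the test (adjusted p under 0.05, limma) and open points did not. SLC7A8, SLC7A7 and IL4I1 lie above 0 and IRF8 below 0 with filled points in each line.

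The difference of the PMA response between lines was tested for these 68 genes. It was called for 6 genes between THP-1 and HL60, 8 between U937 and HL60 and 6 between U937 and THP-1, beside 7.78%, 7.73% and 4.77% of all genes, and for 14, 15 and 10 with the replicate number as a block. WARS1 responded less in THP-1 than in HL60, by 2.02 ± 0.40 (adjusted p = 0.0032, limma). CXCL10 responded more in U937 than in HL60 or THP-1, by 1.57 ± 0.29 and 1.49 ± 0.29 (adjusted p 0.0019 and 0.0039, limma). Its U937 DMSO and PMA levels lay below 5.17, and the part of such low signal in these differences was not tested. SLC7A8 responded less in U937 than in THP-1, by 1.93 ± 0.35 (adjusted p = 0.0021, limma). PARP1 fell more in U937 than in THP-1, by 1.60 ± 0.36, and BIN1 responded less, by 1.62 ± 0.28 (adjusted p 0.012 and 0.0016, limma).

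The glutamine exchanger SLC1A5, named after its values were seen, changed by 0.34 ± 0.18 in HL60 and fell by 0.78 ± 0.18 in THP-1 and by 1.30 ± 0.18 in U937. Its response differed from HL60 by -1.12 ± 0.26 in THP-1 and -1.64 ± 0.26 in U937 (adjusted p 0.011 and 0.00048, limma). SLC16A10, an aromatic amino acid transporter, differed between U937 and HL60 by -2.35 ± 0.41 and between THP-1 and HL60 by -1.74 ± 0.41 (adjusted p 0.0010 and 0.011, limma). Between U937 and HL60, the calls for CYP1B1, AHR, IL4I1, SLC36A4 and BIN1 were lost in 11, 10, 5, 10 and 4 of 25 alternatives. Between THP-1 and HL60, those for SLC7A8 and CYP1B1 were lost in 12 and 11 of 25. The GBP1 call between U937 and THP-1 was lost in 1 of 25. Of the 81 calls made for these genes, responses and differences together, 51 held in all of the alternatives run on them.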

How the data were processed

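Log2 values of 287329 core probe sets on 18 Affymetrix human exon arrays were deposited, made by the authors with Affymetrix Expression Console per the submitters' processing notes. Its version, background correction, normalization and genome build were not given in the sources used here. The values ran from 0.58 to 14.4 and were used as deposited. In the platform annotation 261273 probe sets had a single symbol, 9155 several and 16901 none. Of 16941 symbols, 14546 were current in RefSeq (GRCh38.p14), 2300 were updated and 95 kept. Gene levels are means over the single-symbol probe sets of genes with at least 3 of them.

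Gene levels were fitted with limma 3.58.1 in R 4.3.3 (with the package data.table, version 1.17.8) as 6 group means (residual degrees of freedom 12, total after moderation 17.1). Two-sided p-values were adjusted by Benjamini-Hochberg over all 16241 genes, and called under 0.05. The script was tested on simulated data. The number of arrays limits the precision. Other genes were named from each list as the called ones with the highest change, at most 4 per list and line, plus AHR, NAMPT, WARS1, SLC7A5 and IRF1, which are always reported where measured. SLC1A5, SOCS3, GPR35, BIN1 and GBP1 in HL60, IFNGR2 and JAK2 in THP-1, and SLC16A10 and SLC7A6 in U937 lay outside this rule and were named after their values were seen. The members and lists were chosen with earlier results of these data known. Promoter windows came from RefSeq.

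Same-numbered DMSO and PMA arrays of a line deviated together from their group means (correlation 0.29 to 0.79, above the best other number in 7 of 9 cases), so the numbers were taken to pair the arrays, and a fit with the number as a block is given where it changed a call. For the DMSO contrasts the block was random, with a correlation of 0.44. Alternatives were quantile normalization, centring on array medians, median polish, a filter on probe sets below the 30th percentile, leaving out single arrays or both U937 arrays numbered 2, the block, and fits of only the lines compared.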

Additional observations from a re-analysis of the deposited data

Results flagged for a closer look

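For 3 of the enzymes the direction of the PMA response differed between lines on every array number, and none of these differences was tested. The KYNU response was 2.75 ± 0.87 (SE) log2 units lower in THP-1 than in HL60 (difference -2.75) and 4.62 ± 0.87 higher in U937 than in THP-1. The KMO response differed by -2.25 ± 0.55 between THP-1 and HL60 and by 1.74 ± 0.55 between U937 and THP-1. For HAAO the difference between THP-1 and HL60 was -1.33 ± 0.29.

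Among the other genes, 3 were called in opposite directions in a pair of lines, and the test of the difference passed (limma). The kinase JAK2 rose in HL60 and fell in THP-1, a difference of -1.74 ± 0.35 (adjusted p = 0.0041, limma), although the THP-1 decrease of 0.81 lost its call without THP-1 PMA 1 (adjusted p = 0.15, limma), THP-1 DMSO 2 or THP-1 DMSO 3. The aromatic amino acid transporter SLC16A10 rose in HL60 by 0.93 and fell in U937 by 1.42, a difference of -2.35 ± 0.41 (adjusted p = 0.0010, limma). The HL60 call was lost without HL60 PMA 3 (0.59, adjusted p = 0.17, limma), HL60 DMSO 1 or HL60 DMSO 2. The cystine transporter SLC7A11 fell in THP-1 and rose in U937, a difference of 3.87 ± 0.80 (adjusted p = 0.0068, limma). The tests of these 3 differences passed in every alternative run.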

How the results depend on the processing

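No result turned its sign past the threshold. The TDO2 and KYNU responses kept their directions in all 3 lines under all alternatives, while IDO1 in HL60 and U937 and QPRT in U937 crossed 0. The filter on low probe sets left IDO1 with 2 probe sets and no value. With quantile normalization, no enzyme had all THP-1 PMA arrays below DMSO (0 against 1), 19 other genes rose in U937 against 10, and 13 differed in response between THP-1 and HL60 against 6. Over all genes, 4197 were called for THP-1 against HL60 with DMSO (2692 in the values as reported), 2317 for the response of THP-1 against HL60 (1264) and 1395 for U937 against THP-1 (774). With arrays centred on their median these counts were 0, 21, 12, 4423, 2156 and 1329. Centring and quantile normalization moved the median of all genes in U937 from -0.07 to 0.17 and 0.12, and the share of calls that were higher from 25.0% to 50.3% and 48.3%; in THP-1 the share moved from 41.5% to 51.7% and 50.1%. With median polish 2 enzymes had all THP-1 PMA arrays below DMSO, and with the filter 1 rather than 2 had them above.

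Without both U937 arrays numbered 2, 7 rather than 11 other genes fell in U937 and 1 rather than 2 enzymes differed between U937 and HL60 with DMSO, while KYNU had an adjusted p of 0.065 there (limma). Over all genes 4044 were then called for THP-1 against HL60 with DMSO, 7064 rather than 4263 for U937 against THP-1 with DMSO, and 2075 for the response of THP-1 against HL60, with 10 other pathway genes among them. Fitting only the lines compared gave 2049 genes for the response of THP-1 against HL60, and 5 rather than 8 other pathway genes for U937 against HL60. With the replicate number as a block, 5648 genes rather than 3666 were called for PMA in THP-1 and 5399 rather than 3571 in U937, with 14 other pathway genes higher in THP-1. For the differences of response the block gave 2516, 2664 and 1647 genes (1264, 1256 and 774 without it), and 14, 15 and 10 other pathway genes. Beside those named here and in the report, the block changed no count by over 1.5 times and no single call of the enzymes or of the genes always reported.

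Leaving out 1 array at a time, 2998 to 4859 genes were called for PMA in HL60, 2574 to 4939 in THP-1 and 2566 to 4039 in U937. With DMSO, 1957 to 3944 were called for THP-1 against HL60, 2516 to 4826 for U937 against HL60 and 2945 to 6670 for U937 against THP-1. For the differences of response the ranges were 901 to 2094, 886 to 1943 and 560 to 1186 genes. Of the other pathway genes, 13 to 21 rose and 6 to 9 fell in HL60, 7 to 11 and 5 to 9 in THP-1, and 6 to 14 and 6 to 12 in U937. Their differences of response numbered 4 to 9, 4 to 11 and 6 to 7. Of the enzymes, 3 to 4, 1 to 2 and 3 to 4 differed between lines with DMSO, 1 to 4 had all THP-1 PMA arrays below DMSO, 2 to 3 in U937 had them above, and 0 to 1 below. The cause of these movements was not tested.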

Other observations

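The 8 probe sets of QPRT, singled out after their values were seen, did not move alike. In HL60, 5 of them were lower with PMA by 0.83 to 1.95 log2 units, while the other 3 changed by 0.42, -0.14 and -0.12. The same 5 were higher in THP-1 than in HL60 with DMSO by 1.45 to 2.57, and the other 3 by 0.34, 0.22 and 0.66. No test was made of this, and probe sets of a gene share their arrays.

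PPBP, a platelet chemokine precursor on the list of erythroid and megakaryocyte markers, rose with PMA by 2.75 ± 0.61 log2 units in HL60, by 2.19 ± 0.61 in THP-1 and by 3.46 ± 0.61 in U937 (SE, 3 arrays per group, limma, adjusted p at most 0.014). It was the 1 gene of the 5 measured on that list that was called. Among 8 markers of T and NK cells, NKG7 fell in HL60 and in THP-1, by 1.58 ± 0.19 and 0.85 ± 0.19, and GNLY rose in THP-1 by 1.90 ± 0.29.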
